A study of Rattus norvegicus with 18 samples.

Results

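The genes described here start, restrain or dissolve blood clots: F3, Tfpi, Tfpi2, Thbd, Procr, Fgl2, Plat, Plau and Plaur. They were measured on 18 microarrays of RNA from rat soleus, a slow calf muscle. All probe sets annotated to one of these symbols alone were taken, which gave 17 probe sets of 31042 on the array and 9 genes of 14217. Where a gene had several, its main probe set was chosen by the mean level over all 18 arrays, the brightest being taken, and further probe sets are described beside it. The right against left values of Fgl2 in SNX rats and of Tfpi2 in sham rats were known to be large when the genes were chosen, so the right against left values of both are given as a description without a p-value. The other genes and the lists of related genes below were also chosen with earlier results of these data known. Their p-values describe these arrays only.

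Male rats had undergone SNX, a 5/6 nephrectomy that leaves a remnant kidney as a model of chronic kidney disease, or a sham operation. In every rat the femoral artery of the right hindlimb was ligated and resected 8 weeks later, and both soleus muscles were taken 24 h after that. The 4 groups were therefore SNX right and SNX left, from the same 5 rats, and sham right and sham left, from the same 4 rats. No group came from rats without an artery ligation, and a left muscle is from an animal with an ischemic limb on its other side. The source field of the labels calls both limbs of SNX rats ischemic and both limbs of sham rats nonischemic, which differs from the stated design, so the groups are named by side.

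Tissue factor, the product of F3, starts coagulation by binding factor VII on cells outside the bloodstream. Tfpi encodes its main inhibitor, and thrombomodulin (Thbd) and the endothelial protein C receptor (Procr) turn thrombin towards activation of the anticoagulant protein C. Fibrin is dissolved by plasmin, which tissue-type and urokinase-type plasminogen activators (Plat and Plau) release from plasminogen, and urokinase is held on cell surfaces by its receptor, the product of Plaur.

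All levels are log2 values as the authors deposited them, so a difference of 1 is a 2-fold difference. Genes were compared between groups and never with each other, since probe sets differ in brightness. The main probe sets of 8 of the 9 genes lay above the median probe set of the array on all 18 arrays. Plaur did so on 2 of 18, the right arrays of SNX rat 49 and sham rat 17. These 2 arrays stood apart. Their mean correlations with the other arrays were 0.980 and 0.978, against 0.987 to 0.992 for the rest. Their means over 13 macrophage and monocyte markers were 7.57 and 8.31, and no other array exceeded 6.68. All 10 endothelial markers measured, all 6 slow-fibre and all 6 fast-fibre markers lay above the array median on every array. Among 5 platelet markers, 4 lay above it on no array, and Pf4 did on all. In whole muscle, fewer cells of a type and less RNA per cell cannot be told apart.

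**Figure D1:**
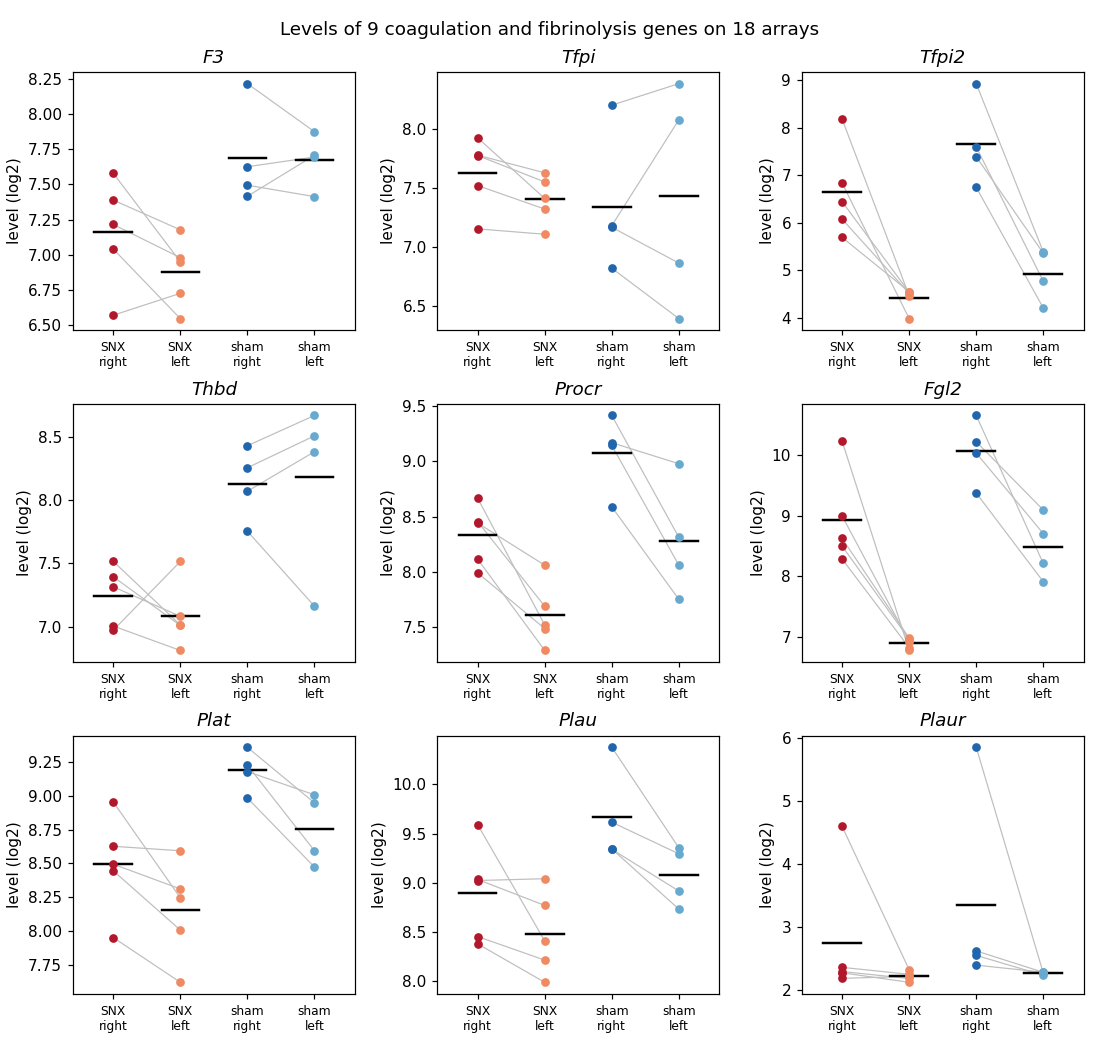
Level of each gene (log2, vertical axis, scaled to each gene) on 18 arrays in SNX right, SNX left, sham right and sham left muscle. Points are arrays, bars are group means and grey lines join the 2 limbs of 1 rat. The Tfpi2 and Fgl2 points of right limbs lie above those of left limbs within SNX and within sham rats.

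Tfpi2, which encodes a relative of Tfpi that inhibits plasmin and other proteases in the matrix around cells, had the highest right over left ratio of the 9 genes over all rats by their main probe sets. In SNX rats one of the further Fgl2 probe sets, 1386637_at, had a higher difference (2.43, against 2.23 for Tfpi2). In SNX rats 12, 18, 20, 37 and 49 the level of Tfpi2 was 5.69, 6.08, 6.44, 6.84 and 8.18 in right muscle, against 4.55, 4.52, 4.54, 3.99 and 4.47 in left muscle of the same rats. In sham rats 11, 13, 15 and 17 it was 7.60, 6.74, 7.39 and 8.93 in right muscle, against 4.77, 4.21, 5.36 and 5.39 in left muscle. Every right muscle lay above every left muscle, whichever operation the rats had. The mean right minus left difference was 2.23 ± 1.04 (SD, n = 5) in SNX rats and 2.73 ± 0.63 (SD, n = 4) in sham rats. Over all rats it was 2.48 ± 0.33 (SE), a 5.59-fold higher level. Here and below, a difference over all rats is the mean of the SNX and sham differences, each weighted equally. Its SE is from the limma fit that does not pair the limbs. Without the 2 arrays that stood apart it was 2.08 over all rats.

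Promoters were found for Tfpi, Tfpi2, Procr, Plau and Plaur among RefSeq sequences of the rat assembly GRCr8, each from 250 bases before to 50 after the start site given there. Those of the 2 inhibitors are shown because Tfpi2 differed between limbs by several fold and Tfpi did not. Capitals mark TGANTCA, a loose form of the AP-1 site in which N is any base. They also mark ACGTG, as well as its variant GCGTG, the core that hypoxia-inducible factors bind. Each was sought on either strand. The Tfpi2 promoter lies at chr4:32941227-32941526 on the minus strand and that of Tfpi at chr3:89980675-89980974 on the minus strand.
Tfpi2: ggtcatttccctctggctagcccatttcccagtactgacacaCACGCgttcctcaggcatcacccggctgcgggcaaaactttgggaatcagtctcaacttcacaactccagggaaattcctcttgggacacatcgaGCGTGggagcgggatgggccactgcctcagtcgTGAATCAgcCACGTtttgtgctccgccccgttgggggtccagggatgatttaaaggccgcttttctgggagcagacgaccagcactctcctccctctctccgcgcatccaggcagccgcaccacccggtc
Tfpi: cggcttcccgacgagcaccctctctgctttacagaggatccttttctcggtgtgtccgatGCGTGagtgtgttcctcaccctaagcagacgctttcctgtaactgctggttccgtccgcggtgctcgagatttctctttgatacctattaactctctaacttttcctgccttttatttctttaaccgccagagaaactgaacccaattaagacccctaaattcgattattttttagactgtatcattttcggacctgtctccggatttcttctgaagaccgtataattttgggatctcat
The Tfpi2 window held TGANTCA, in the form TGAATCA, starting 80 bases before the start site, and hypoxia cores 208, 113 and 71 bases before it. The last of these begins 2 letters after the AP-1 match ends. The Tfpi window held 1 hypoxia core, 190 bases before the start site, and no AP-1 match. The letters TGANTCA occurred in 3 of the 5 promoters (Tfpi2, and as TGACTCA in Procr and Plaur) and in 7.33% of the 27457 rat promoters scanned. A hypoxia core occurred in 4 of the 5 (Tfpi2, Tfpi, Procr and Plau), against 42.9% of all. The letters GCGNGGGCG, bound by EGR1, were in none of the 5 windows and in 5.29% of all. A match is a stretch of letters, and binding was not measured. The promoters printed were picked by the limb values of their genes, so a link between matches and levels was not tested.

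Tfpi itself showed no common direction between limbs and spread widely among sham rats. Its level ran between 7.16 and 7.93 (median 7.78) in SNX right muscle and between 7.11 and 7.63 (median 7.41) in SNX left muscle. In sham rats it ran between 6.82 and 8.21 in right muscle and between 6.39 and 8.39 in left muscle, the widest spread of the 4 groups. Right lay above left in 5 of 5 SNX rats and in 2 of 4 sham rats. Over all rats the difference was 0.07 ± 0.26 (SE), with a 95% interval from -0.47 to 0.61 (limma, adjusted p = 0.884), and it was -0.09 without the 2 arrays that stood apart. The second Tfpi probe set gave the opposite sign, -0.25 ± 0.16 (SE; limma, adjusted p = 0.399).

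F3 had lower mean levels in SNX than in sham muscle, short of the threshold, and its limbs differed little. In left muscle the levels were 7.18, 6.55, 6.98, 6.73 and 6.95 in SNX rats, against 7.41, 7.71, 7.87 and 7.69 in sham rats, without overlap. In right muscle they were 7.39, 7.04, 7.22, 6.57 and 7.58 in SNX rats, against 7.49, 7.42, 8.22 and 7.63 in sham rats, where 1 SNX muscle, that of rat 49, lay within the sham range. SNX minus sham was -0.80 ± 0.20 (SE) in the left limb, a 1.74-fold lower level, and -0.53 ± 0.20 (SE) in the right limb. Neither passed after adjustment over all probe sets (limma, adjusted p = 0.362 and 0.498). Right minus left over all rats was 0.15 ± 0.14 (SE; limma, adjusted p = 0.557).

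Procr, the receptor that presents protein C to the thrombin and thrombomodulin complex on endothelium, was higher in the right muscle of all 9 rats. Its levels in SNX rats were 8.67, 7.99, 8.11, 8.44 and 8.45 in right muscle, against 7.52, 7.49, 7.29, 8.06 and 7.69 in left muscle. In sham rats they were 8.59, 9.41, 9.14 and 9.17 in right muscle, against 7.75, 8.31, 8.06 and 8.98 in left muscle. The ranges overlapped between limbs in both kinds of rat, because the left muscles of SNX rat 37 and sham rat 17 were high. Within each rat the right muscle exceeded the left by between 0.19 and 1.15. Over all rats the difference was 0.76 ± 0.16 (SE), a 1.70-fold higher level, and it passed the test (limma, adjusted p = 0.0285). With the rat as a random block the adjusted p from limma was 0.00494. The call was lost without sham rat 11, 13 or 15, or SNX rat 12, 18, 37 or 49 (limma, adjusted p between 0.051 and 0.083), and without the 2 right arrays that stood apart (difference 0.73, limma, adjusted p = 0.0667). Its promoter, shown because Procr was called and holds both motifs, lies at chr3:164714477-164714776 on the plus strand, with TGANTCA 217 bases and a hypoxia core 12 bases before the start site.
Procr: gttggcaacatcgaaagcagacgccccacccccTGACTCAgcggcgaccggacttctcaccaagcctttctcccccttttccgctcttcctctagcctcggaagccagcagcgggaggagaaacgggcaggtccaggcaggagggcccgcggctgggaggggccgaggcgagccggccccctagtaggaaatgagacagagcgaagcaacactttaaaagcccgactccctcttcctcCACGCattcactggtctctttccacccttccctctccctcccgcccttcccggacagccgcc

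Thbd, the thrombin receptor that makes protein C activation possible, had close mean levels in both limbs and lower ones in SNX than in sham rats, short of the threshold. In right muscle its levels were 7.52, 7.39, 6.97, 7.31 and 7.01 in SNX rats, against 7.75, 8.43, 8.07 and 8.25 in sham rats, without overlap. In left muscle they were 7.01, 7.01, 7.51, 7.08 and 6.81 in SNX rats, against 7.16, 8.67, 8.38 and 8.51 in sham rats. The left groups overlapped through sham rat 11, whose 7.16 lay within the SNX range. SNX minus sham was -0.89 ± 0.26 (SE) in the right limb, a 1.85-fold lower level, and -1.09 ± 0.26 (SE) in the left limb, a 2.13-fold lower level. Neither passed (limma, adjusted p = 0.498 and 0.352). Without sham rat 11 the left difference was -1.43 and passed (limma, adjusted p = 0.00696). A second Thbd probe set gave -0.64 ± 0.21 (SE) in the right limb and -0.67 ± 0.21 (SE) in the left limb. The third stayed between 2.26 and 2.43, below the array median on all arrays. Right minus left was 0.05 ± 0.18 (SE) over all rats (limma, adjusted p = 0.882).

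Fgl2 encodes a fibrinogen-like protein known both as a membrane prothrombinase of macrophages and endothelium, which can make thrombin directly, and as a protein secreted by T cells. In SNX rats its level was 8.62, 8.50, 8.28, 8.99 and 10.22 in right muscle, against 6.98, 6.97, 6.83, 6.93 and 6.78 in left muscle. In sham rats it was 10.03, 10.21, 9.37 and 10.65 in right muscle, against 8.70, 9.09, 7.91 and 8.21 in left muscle. All right muscles lay above all left muscles of the same kind of rat, and the SNX left muscles formed a narrow band (SD 0.09) below all other arrays. Right minus left was 2.03 ± 0.83 (SD, n = 5) in SNX rats and 1.59 ± 0.58 (SD, n = 4) in sham rats, and 1.81 ± 0.25 (SE) over all rats, a 3.5-fold higher level. Without the 2 arrays that stood apart it was 1.55.

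The other 3 Fgl2 probe sets also read higher on the right in 9 of 9 rats. Their differences over all rats were 2.06 ± 0.25 for 1386637_at, 1.91 ± 0.23 for 1392894_at and 1.69 ± 0.34 (SE) for the dimmest, 1370623_at. The dimmest lay above the array median on 9 of 18 arrays.

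**Figure D2:**
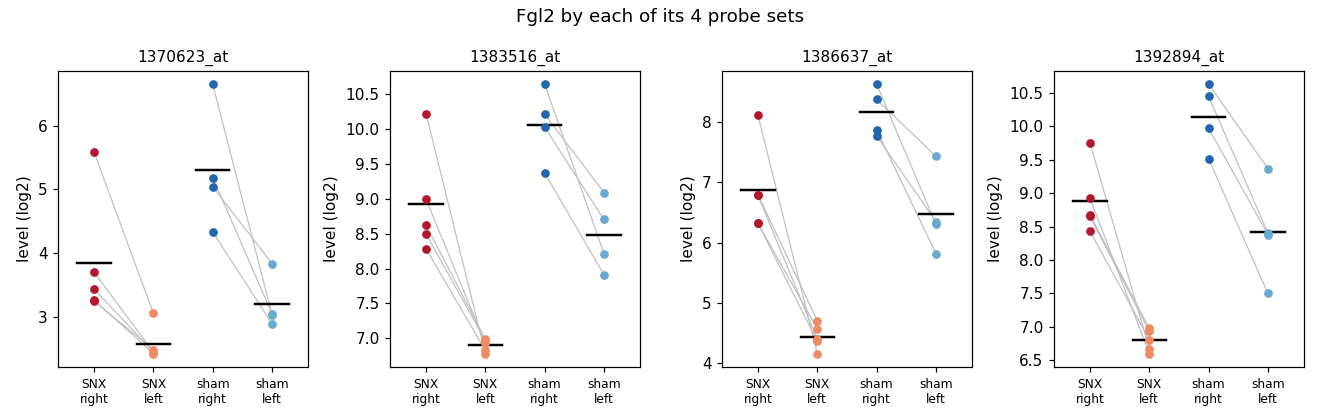
Level of Fgl2 (log2, vertical axis, scaled to each panel) by each of its 4 probe sets in SNX right, SNX left, sham right and sham left muscle. Points are arrays, bars are means and grey lines join the limbs of 1 rat. All 4 sets read higher on the right in each of the 9 rats, and 3 of the 4 separate SNX left from sham left muscle.

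Fgl2 also had lower mean levels in SNX than in sham muscle, short of the threshold with all arrays. In left muscle it averaged 6.90 ± 0.09 in SNX rats (SD, n = 5) and 8.48 ± 0.52 in sham rats (SD, n = 4), without overlap. The difference was -1.58 ± 0.35 (SE), a 3.0-fold lower level, with an adjusted p from limma of 0.352. In right muscle it averaged 8.92 ± 0.77 in SNX rats and 10.06 ± 0.53 in sham rats, a difference of -1.14 ± 0.35 (SE; limma, adjusted p = 0.498), and the groups overlapped through SNX rat 49. In the left limb 1386637_at gave -2.04 ± 0.36 and 1392894_at -1.61 ± 0.33, both without overlap, while 1370623_at gave -0.63 ± 0.48 (SE) with overlap. When the 2 right arrays that stood apart were left out, the left levels stayed as they were, the spread shared by all groups was smaller, and the left difference passed (limma, adjusted p = 0.0404). The SNX levels of both limbs entered the right against left value known when Fgl2 was chosen. Its SNX against sham differences and their p-values are therefore a description only.

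Plat, which encodes the plasminogen activator released by endothelium, read higher on the right in 9 of 9 rats by small amounts. In SNX rats the levels were 8.96, 8.63, 8.45, 7.95 and 8.49 in right muscle, against 8.25, 8.59, 8.01, 7.62 and 8.31 in left muscle. In sham rats they were 8.98, 9.36, 9.23 and 9.18 in right muscle, against 8.47, 8.95, 8.59 and 9.01 in left muscle. The gain within a rat ran between 0.03 and 0.71, and the limbs overlapped in both kinds of rat. Over all rats right minus left was 0.39 ± 0.14 (SE), a 1.31-fold higher level. It did not pass without the rat block (limma, adjusted p = 0.155) and passed with it (limma, adjusted p = 0.0416). In right muscle every SNX value lay below every sham value, with a difference of -0.69 ± 0.20 (SE; limma, adjusted p = 0.498). In left muscle the difference was -0.60 ± 0.20 (SE; limma, adjusted p = 0.595), with overlap.

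Plau, encoding urokinase, ran between 8.38 and 9.59 (median 9.02) in SNX right muscle and between 7.99 and 9.04 (median 8.41) in SNX left muscle. In sham rats it ran between 9.34 and 10.38 (median 9.48) in right muscle and between 8.73 and 9.36 (median 9.11) in left muscle. Right exceeded left in 8 of 9 rats, the exception being SNX rat 20. The difference over all rats was 0.50 ± 0.20 (SE; limma, adjusted p = 0.188, and 0.0628 with the rat block), and it was 0.30 without the 2 arrays that stood apart. SNX minus sham was -0.77 ± 0.28 (SE) in the right limb and -0.59 ± 0.28 (SE) in the left limb (limma, adjusted p = 0.498 and 0.812). The dimmer second Plau probe set, 1398287_at, read higher on the right in 6 of 9 rats, by 0.48 ± 0.28 (SE) over all rats (limma, adjusted p = 0.358). By that set SNX minus sham was -0.37 ± 0.39 (SE) in the right limb and -0.10 ± 0.39 (SE) in the left limb (limma, adjusted p = 0.611 and 0.984).

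Plaur, the urokinase receptor, was read above the array median by 2 arrays alone. In SNX right muscle its level was 2.28, 2.36, 2.19, 2.30 and 4.59, and in SNX left muscle 2.13, 2.25, 2.22, 2.19 and 2.33. In sham right muscle it was 2.55, 2.63, 2.40 and 5.85, and in sham left muscle 2.24, 2.29, 2.29 and 2.28. The high values are those of SNX rat 49 and sham rat 17 on the right. With them, right minus left over all rats was 0.80 ± 0.43 (SE; limma, adjusted p = 0.326). Without them it was 0.16 ± 0.04 (SE; limma, adjusted p = 0.0479), over levels that lay below the array median throughout. The second Plaur probe set stayed between 2.20 and 2.28 on all arrays.

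**Figure D3:**
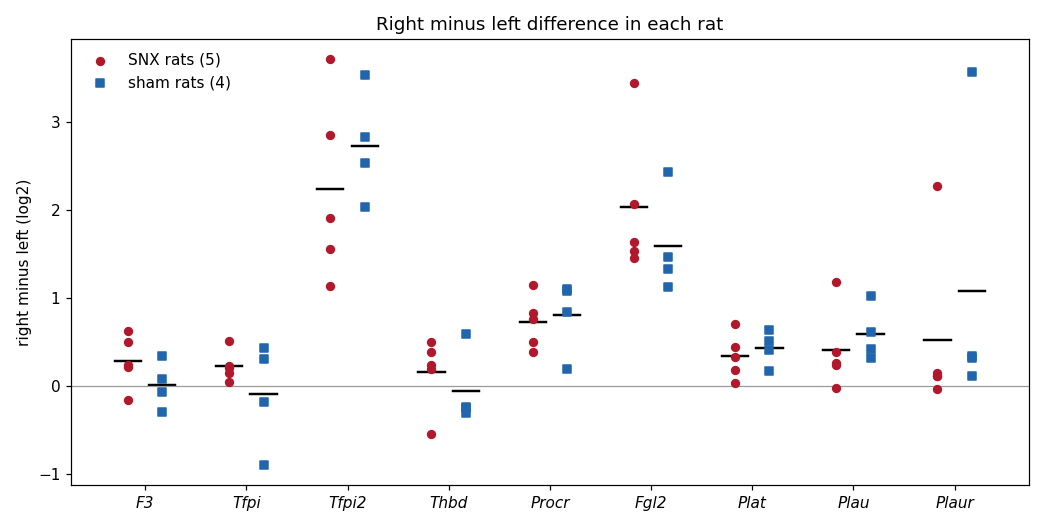
Right minus left difference (log2, vertical axis) of each gene in each rat, with the 5 SNX rats as red circles and the 4 sham rats as blue squares. Bars are means of each kind of rat. All 9 rats lie above 0 for Tfpi2, Procr, Fgl2 and Plat, and the highest Plaur points, 2.27 and 3.57, are SNX rat 49 and sham rat 17.

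Counted over the 9 genes, the right against left differences were above 0 for 9 genes in SNX rats (median 0.41, against -0.01 over all probe sets) and for 7 in sham rats (median 0.59, against -0.02), where F3 turned to -0.02 after quantile normalization. Without the 2 arrays that stood apart the median over all rats was 0.30, and -0.01 over all probe sets. Of the 31042 probe sets, 15581 had a mean level above the mean of the array medians. All main probe sets of the 9 genes but that of Plaur did. These medians therefore compare sets of unlike brightness. The counts past the threshold within each kind of rat consist of Fgl2 and Tfpi2, which were chosen with these values known, so they restate the choice and nothing is read from them. In SNX rats the count was 1 (Fgl2), where 0.0419% of all probe sets were past it, and 2 with the rat block (Fgl2 and Tfpi2), where 0.232% were. In sham rats it was 1 (Tfpi2), where 0.113% were, and 2 with the block (Tfpi2 and Fgl2), where 0.999% were. Leaving out any 1 of the 9 rats brought the count in SNX rats to 0, and in sham rats to 0 or, without SNX rat 49, to 2. Over all rats 3 were past it, where 1.55% of all probe sets were: Procr, beside Tfpi2 and Fgl2, which restate the choice here too. With the block there were 4 (with Plat), where 4.56% were. None was called lower.

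Right muscles lay wholly above left muscles for 2 genes in SNX rats (Tfpi2 and Fgl2), where 1.38% of all probe sets did, and for 3 in sham rats (with Plaur), where 3.24% did. In all 9 rats the right muscle exceeded the left for 4 genes, where 2.85% of all probe sets did. These counts too include Fgl2 and Tfpi2 and are a description. The 13 macrophage and monocyte markers moved the same way. All 13 were above 0 for right minus left over all rats, with a median of 0.82, or 12 of 13 with a median of 0.47 without the 2 arrays. Their mean ran between 5.18 and 7.57 in SNX right muscle, between 4.82 and 5.46 in SNX left muscle, between 5.96 and 8.31 in sham right muscle and between 5.45 and 6.17 in sham left muscle. Limma called 1 of these 13 higher over all rats, and 7 with the rat block. Of 8 fibroblast markers 7 were above 0 (median 0.42), and of 10 endothelial markers 7 (median 0.18). Other lists did not rise in this way. Above 0 were 1 of 6 smooth muscle and pericyte markers (median -0.14) and 1 of 6 fast-fibre markers (median -0.04). So were 5 of 6 slow-fibre (median 0.06), 3 of 6 neutrophil (median 0.07) and 2 of 5 platelet markers (median -0.02). The part of these cells in the right against left differences was not tested.

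**Figure D4:**
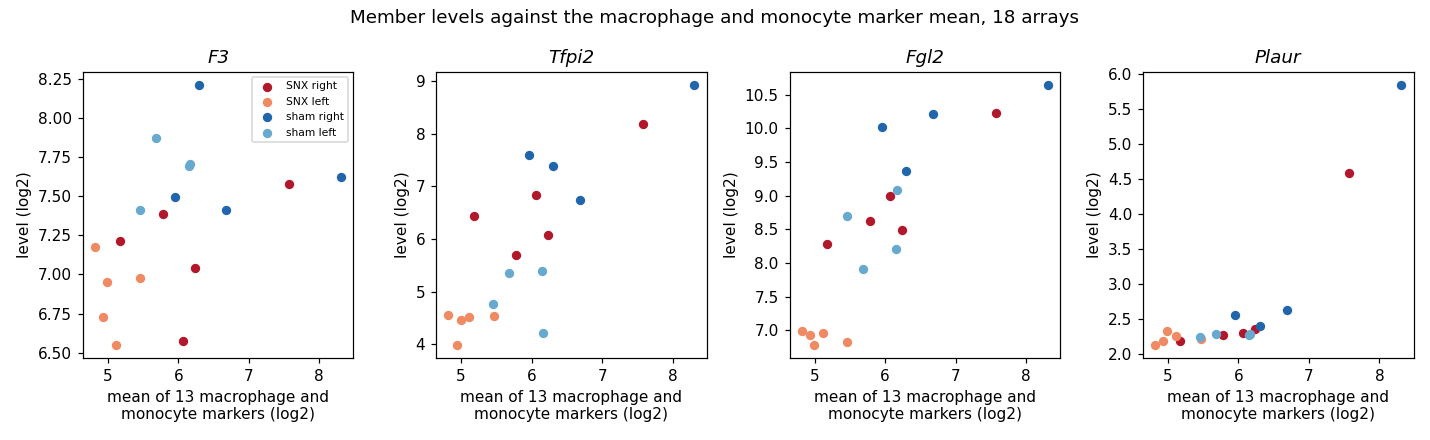
Level of F3, Tfpi2, Fgl2 and Plaur (log2, vertical axis) against the mean of 13 macrophage and monocyte markers (log2, horizontal axis) on each of 18 arrays, coloured by group. The 2 arrays furthest to the right, at 7.57 and 8.31, are SNX rat 49 and sham rat 17 on the right side, and they carry the 2 raised Plaur values.

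How far a gene followed these markers within groups depended on the same 2 arrays. Deviations from the group means correlated with those of the marker mean at r = 0.89 for Plaur, 0.72 for Fgl2, 0.68 for Tfpi2 and 0.66 for Plau over 18 arrays. Over the 16 arrays without the 2, the values were 0.51, 0.27, -0.20 and 0.15. Thbd had r = 0.30 over 18 arrays and 0.74 over 16. With the mean of 6 neutrophil markers Tfpi2 had r = 0.81 over 18 arrays and 0.52 over 16, and Tfpi 0.66 and 0.59. That marker mean ran between 2.98 and 3.90 in SNX right muscle, between 2.95 and 3.31 in SNX left muscle, between 3.10 and 4.50 in sham right muscle and between 2.98 and 4.11 in sham left muscle, with sham rat 17 highest in both limbs. Of the 6 neutrophil markers, 3 lay above the array median on no array (Cxcr2, Mmp8 and Camp) and S100a8 and S100a9 on all. Arrays of 1 rat share that animal, and these correlations describe the arrays only.

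SNX rats had lower mean levels than sham rats for most of the 9 genes in both limbs, but no single gene passed the test after adjustment. In the right limb 8 of 9 differences were below 0 (all but Tfpi, 0.29 ± 0.36 SE), with a median of -0.74, against 0.03 over all probe sets. In the left limb 9 of 9 were below 0, with a median of -0.60, against 0.01, though Tfpi (-0.03) turned to 0.01 after quantile normalization. Plaur (-0.05) was also close to 0 there. All probe sets include many dim ones, so these medians too compare sets of unlike brightness. The limbs come from the same rats, so the second count does not repeat the first in other animals. Tfpi2 was -1.02 ± 0.47 in the right limb and -0.52 ± 0.47 (SE) in the left limb, and Procr -0.74 ± 0.23 and -0.67 ± 0.23 (SE).

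**Figure D5:**
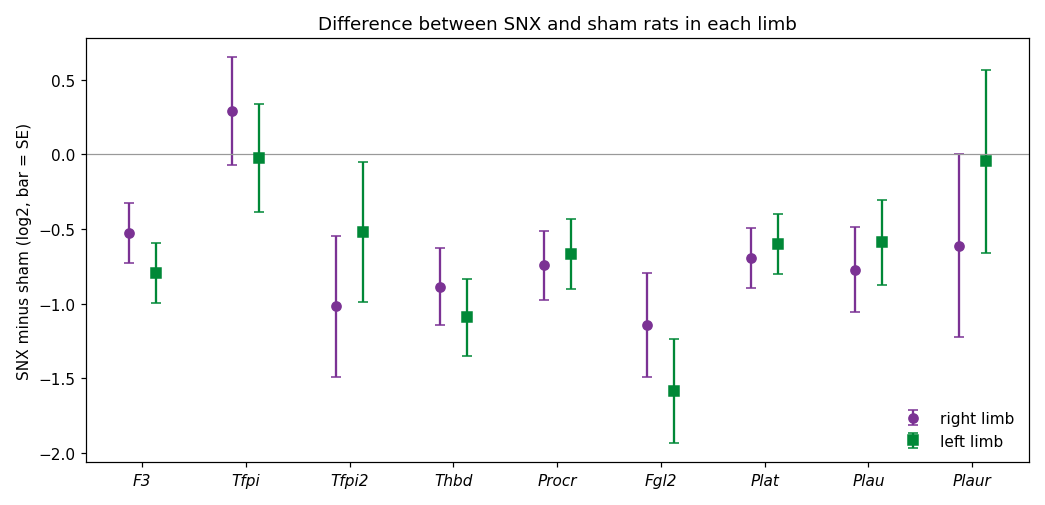
SNX minus sham difference of each gene (log2, vertical axis) in the right limb (purple circles) and the left limb (green squares), with bars of 1 standard error from limma, over 5 SNX and 4 sham rats. All points but Tfpi in the right limb lie below 0 (Tfpi in the left limb, at -0.03, turns to 0.01 after quantile normalization), and Fgl2 has the lowest value in both limbs.

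In the right limb limma called 0 of the 9 genes, where 0% of all probe sets were called. At an unadjusted p under 0.05 limma gave 7 of the 9 genes and 2872 of 31042 probe sets (9.25%). In the left limb limma called 0 of the 9, where 0.00644% of all probe sets were called, and 5 of the 9 genes (F3, Fgl2, Thbd, Procr and Plat) against 1941 probe sets (6.25%) had an unadjusted p under 0.05. SNX values lay wholly below sham values for 2 genes in the right limb (Thbd and Plat), where 0.483% of all probe sets did, and for 2 in the left limb (F3 and Fgl2), where 1.47% did. The 9 genes were chosen with earlier results of these data known. SNX levels of Fgl2 and sham levels of Tfpi2 entered that choice. The pool of all probe sets also holds many dimmer ones. These counts beside their shares are thus a description, and nothing is read from them. Several marker lists of other cells also had medians below 0 for SNX minus sham. Of 13 macrophage and monocyte markers, 13 were below 0 in the right limb (median -0.67) and 12 in the left limb (median -0.98). Of 10 endothelial markers, 10 were below 0 in the right limb (median -0.28) and 9 in the left limb (median -0.22). Of 8 fibroblast markers, 6 were below 0 in the right limb (median -0.44) and 8 in the left limb (median -0.65). Of 6 smooth muscle and pericyte markers, 4 were below 0 in the right limb (median -0.15) and 5 in the left limb (median -0.26). Their mean in left muscle ran between 6.50 and 6.691 in SNX rats and between 6.692 and 7.05 in sham rats, so the ranges all but touched. Of 6 slow-fibre markers, 6 were below 0 in the right limb (median -0.55) and none in the left limb (median 0.18). Single arrays weigh on both values. The slow-fibre mean was 11.11 in the right muscle of SNX rat 20, against 14.06 to 14.28 in the other SNX right muscles. In sham right muscle it ran between 13.41 and 14.70. In left muscle it was lowest in sham rat 17, at 12.14, while SNX left muscles ran between 13.23 and 14.97. The medians of neutrophil, platelet and fast-fibre markers lay between -0.08 and 0.06 in both limbs. Their part in the differences of the 9 genes was not tested.

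Whether the response of the right limb differed between SNX and sham rats was tested as an interaction, the right minus left change of SNX rats minus that of sham rats. It was 0.44 ± 0.49 (SE) for Fgl2, with a 95% interval from -0.61 to 1.5, and -0.50 ± 0.66 (SE) for Tfpi2, with an interval from -1.91 to 0.92. For Procr it was -0.08 ± 0.33 (SE), with an interval from -0.78 to 0.62. The 9 genes split into 4 above and 5 below 0. Limma called 0 of them, where 0% of all probe sets were called, and at an unadjusted p under 0.05 it gave 0 of the 9 and 437 of 31042 probe sets. The Fgl2 interval includes a response 2-fold larger in SNX rats, and the Tfpi2 interval one 2-fold larger in sham rats. Fgl2 was chosen with its right against left value in SNX rats known, and Tfpi2 with its value in sham rats known. Their interactions are built from these values, so both estimates and their intervals are a description only.

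Among other genes of these pathways, F2r, the thrombin receptor PAR1 that signals from thrombin to cells, was higher on the right. The lists of related genes were chosen with earlier results of these data known. The p-values of F2r and of the list genes below are therefore a description. In SNX rats it was 8.27, 8.51, 8.10, 8.85 and 9.14 in right muscle, against 7.60, 6.83, 7.67, 7.04 and 6.74 in left muscle. In sham rats it was 9.49, 9.67, 9.13 and 9.55 in right muscle, against 7.45, 8.54, 8.02 and 7.71 in left muscle. The limbs did not overlap in either kind of rat. The difference over all rats was 1.46 ± 0.19 (SE), a 2.76-fold higher level (limma, adjusted p = 0.00224). It was 1.53 ± 0.28 (SE; limma, adjusted p = 0.0458) in sham rats and 1.40 ± 0.25 (SE; limma, adjusted p = 0.0904, and 0.0275 with the rat block) in SNX rats. It was the 1 call among 4 protease-activated receptors, and the other 3 lay below the array median on all arrays.

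Of 6 anticoagulant proteins measured, none passed over all rats without the rat block and 1 with it: Pros1, encoding protein S, the cofactor of activated protein C, at 0.64 ± 0.17 (SE; limma, adjusted p = 0.0592, and 0.0185 with the block). Of 10 further genes of the plasminogen system, none passed without the block and 2 with it. These were Lrp1, an endocytic receptor that clears plasminogen activators bound to their inhibitors, at 0.70 ± 0.19 (SE; limma, adjusted p = 0.0587, and 0.0179 with the block), and Anxa2, a cell surface site where plasminogen and Plat meet, at 1.47 ± 0.43 (SE; limma, adjusted p = 0.0805, and 0.0321 with the block). Of 12 coagulation factors and substrates, none passed in either fit, and 8 lay above the array median on no array. Their highest differences were 1.15 ± 0.52 for F5 (factor V) and 0.72 ± 0.32 (SE) for F13a1, the fibrin cross-linking factor XIII subunit that macrophages also make (limma, adjusted p = 0.251 and 0.236). F5 lay above the array median on 3 of 18 arrays. Without the 2 arrays that stood apart these differences were 0.42 for F5 and 0.45 for F13a1, and that of Anxa2 was 0.93. In SNX against sham no gene of these 4 lists passed in either limb. F2r was -0.88 ± 0.26 in the right limb and -0.75 ± 0.26 (SE) in the left limb (limma, adjusted p = 0.498 and 0.641).

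The genes whose deviations from their group means ran most like those of each member were named by Pearson's r over 18 arrays, and over 16 without the 2 that stood apart. For Fgl2 they were Nras (0.93 and 0.84) and Iffo1 (0.92 and 0.81). For Procr they were Arxes1 (0.84 and 0.87) and Mat2b (0.79 and 0.84). For Thbd they were Serpinf1 (0.86 and 0.89) and Heg1 (0.86 and 0.93). F3 ran most like Nid2-ps16 (0.85 and 0.86) and Kcne4 (0.82 and 0.88), and Plat most like Fam107a (0.82 and 0.85) and RT1-Bb (0.81 and 0.86). Plau ran most like Glrx (0.89 and 0.79) and Bcl10 (0.89 and 0.82), and Tfpi most like Bicd2 (0.91 and 0.89) and Mis12 (0.88 and 0.84). These values were above 0.78 on both sets of arrays. All genes named here, those of Tfpi2 and Plaur included, were picked because their r over 18 arrays was highest. How high such picked values run by chance was not tested. The 16 arrays are part of the 18 used for picking, so they give no separate check. The values are a description of these arrays only. For Tfpi2, Pak1ip1 (0.91 and 0.68) and Lrrc59 (0.89 and 0.59) were nearest, and for Plaur, Blnk (0.998 and 0.55) and Kcnn4 (0.998 and 0.60), with lower values over 16 arrays.

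Among the 9 genes themselves the highest such correlation, Tfpi2 with Plaur, was 0.80 over 18 arrays and -0.17 over 16. Fgl2 with Plaur gave 0.70 and 0.32, and Tfpi2 with Fgl2 gave 0.48 and -0.47. Thbd with Procr, the pair that acts on protein C, gave 0.48 and 0.51, and F3 with Plau gave 0.49 and 0.49. The first 3 pairs thus rest on SNX rat 49 and sham rat 17.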

How the data were processed

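RNA of 18 soleus muscles, 1 array each, was measured on Affymetrix rat arrays, and the number in each title was read as the rat. The authors deposited log2 values, already normalized, for 31099 probe sets. The submitters' processing notes name RMA, GCRMA and Partek without versions, and the sources used here do not say which produced the values. RMA and GCRMA correct background differently, which changes dim probe sets such as those of Plaur most. Arrays give no read depth, and the number of arrays limits the precision.

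After 57 control probe sets were left out, 31042 were tested in R 4.3.3 (limma 3.58.1, lmFit with eBayes; data.table, version 1.17.8). One mean per group was fitted over all 18 arrays. Two-sided p-values received a Benjamini-Hochberg adjustment over all probe sets, and the threshold was 0.05. Symbols came from the platform annotation, updated through RefSeq's gene list of GRCr8, where 20758 of the 20826 probe sets with 1 gene matched. A further 436 list several genes and 9780 none.

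Limbs of 1 rat are paired by the animal: in 7 of 9 rats the deviations of the limbs correlated by more than 0.1. The rat was fitted as a random block (consensus correlation 0.297). Where the block changes a call, its value is given. The named genes are the 9 members, the genes of 4 related lists past the threshold with or without the block and otherwise the 2 with the largest right against left difference, and the 2 genes nearest to each member by correlation. Members and lists were chosen with earlier results of these data known. The fit was tested on simulated data. Alternatives were the rat block, quantile normalization, removal of dim probe sets, eBayes with trend and robust, only the groups compared, and leaving out each rat or the 2 arrays that stood apart. Values of the lists and their genes without these 2 arrays were added after seeing the data.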

Additional observations from a re-analysis of the deposited data

Results flagged for a closer look

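Among 68 groups of 4 or 5 arrays (17 probe sets in 4 groups), 9 had 1 array far from the others by Dixon's test at 95%, which flags about 1 group in 20 by chance. In SNX right muscle rat 49 was the highest array for Plaur (1387269_s_at, 4.59), Fgl2 by 1370623_at (5.58) and by 1386637_at (8.11), and Plau by 1398287_at (4.99). In sham right muscle rat 17 was the highest for Plaur (5.85) and Plau by 1398287_at (5.96). These 6 come from the 2 arrays with the highest macrophage and monocyte marker means, 7.57 and 8.31, and the part of those cells was not tested.

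The other 3 were in left muscle. Fgl2 by its dimmest probe set, 1370623_at, was highest in rat 49 among SNX left muscles (3.05) and in rat 13 among sham left muscles (3.83). Tfpi2 was lowest in rat 37 among SNX left muscles (3.99).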

How the results depend on the processing

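The right over left differences of Fgl2 and Tfpi2 over all rats kept their sign in 14 of 14 alternatives, and Procr kept its sign in 14 and its call in 6. Fgl2 and Tfpi2 were chosen with large right against left values known. Their kept signs and their share in the counts between limbs below therefore restate the choice. The call of Fgl2 between left limbs of SNX and sham rats uses SNX levels that entered that choice, and is a description. With the replicate block (the rat, which pairs the limbs) limma called, between limbs, 99 probe sets and 2 members in SNX rats, 559 and 2 in sham rats and 2808 probe sets over all rats, against 14 and 1, 46 and 1, and 791 without it; the block changed no other count of members except that over all rats, 4 in place of 3. Without dim probe sets the counts were 33 and 2 in SNX rats, 145 and 2 in sham rats, 1794 probe sets over all rats, and 2 between right limbs of SNX and sham rats, where eBayes with trend and robust gave 1 (main count 0). Plaur is itself dim and drops out there. Without the right arrays of sham rat 17 and SNX rat 49 the counts were 2 members in SNX rats, 183 probe sets and 2 members in sham rats, 2 probe sets between right limbs of SNX and sham rats, 8 and 1 member (Fgl2) between left limbs, and 1 for the difference of the responses. With only the groups compared they were 0 and 0 in SNX rats, 11 and 0 in sham rats and 0 in the left limb (main count 2), with fewer arrays to estimate the spread. Quantile normalization gave 0 members in SNX rats and 0 probe sets in the left limb. The cause of these shifts was not tested otherwise.

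Leaving out 1 rat at a time gave 0 to 8 probe sets and 0 members in SNX rats, 0 to 284 and 0 to 2 in sham rats, 153 to 1007 and 2 to 3 over all rats, 0 to 10 between right limbs of SNX and sham rats, 0 to 12 and 0 to 1 between left limbs, and 0 throughout for the difference of the responses.

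Values near 0 changed sign. Right minus left in sham rats was -0.0178 for F3 after quantile normalization and, without 1 rat, ran between -0.0928 and 0.118 for F3, -0.26 and 0.18 for Tfpi and -0.267 and 0.0335 for Thbd. Over all rats Tfpi was -0.0923 without the 2 arrays and ran between -0.0162 and 0.205 without 1 rat, and Thbd between -0.0568 and 0.138. For SNX against sham, Plaur ran between -1.07 and 0.22 in the right limb, and Tfpi between -0.37 and 0.29 in the left limb and was 0.0129 after quantile normalization. The difference of the responses ran between -0.282 and 0.0212 for Procr and between -0.999 and 0.27 for Plaur.

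All 9 rats carried an arterial ligation and each group holds 4 or 5 arrays, so small differences of single genes could not be resolved. Plaur, and single probe sets of Fgl2, Thbd and Plau, lay near or below the array median, where the authors' background correction weighs most.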
